A study of Mus musculus with 10 samples.

Results

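The genes for voltage-gated sodium and calcium channels were followed in single nuclei of mouse hippocampus and cortex. They were taken as every gene of the count table whose symbol begins with Scn and a digit, Cacna1, Cacna2d or Cacnb, which gave 32 of 23589 genes. The nuclei came from frozen archived brain tissue of C57BL/6 mice, with no treatment or genetic change named, and the method was DroNc-seq, which catches single nuclei with barcoded beads in droplets. Of 10 libraries, 5 were of hippocampus (5658 nuclei) and 5 of cortex (5966 nuclei). Titles number the libraries 0 to 3 in each region, and the a and b libraries of number 0 were added up, so that each region had 4 units. The region label of the cortex libraries reads Cortex. Library names add PFC, for prefrontal cortex, in all cortex units but number 0. The design text speaks of 4 mice but nothing ties a number to a mouse, so p-values reflect only how far these units varied, and that variation could be technical. The labels read here give no age or sex.

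Voltage-gated sodium channels open on depolarisation and carry the rising phase of the action potential. A large alpha subunit (Scn1a, Scn2a1, Scn3a and Scn8a are the main ones of the brain) forms the pore, and small beta subunits (Scn2b, Scn3b and Scn4b among them) tune its gating and its place in the membrane. In calcium channels the pore is an alpha1 subunit, and its kind names the current: L-type (Cacna1c, Cacna1d), P/Q-, N- and R-type (Cacna1a, Cacna1b, Cacna1e), which feed transmitter release, and T-type (Cacna1g, Cacna1h, Cacna1i), which opens near the resting potential and helps cells fire in bursts. An alpha2delta subunit outside the membrane (Cacna2d1 to Cacna2d4) and a beta subunit inside it (Cacnb1 to Cacnb4) carry the pore to the surface. Cacna2d1 and Cacna2d2 are the binding sites of gabapentin.

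The 32 genes held 80584 of 20229036 unique molecular identifiers (UMIs, the counted transcript molecules), or 0.398%. Scn2a1 had the most, with 11132 UMIs, and Scn1a (9117), Scn8a (8515), Cacna2d1 (6798), Cacnb4 (5641) and Cacna1a (5258) followed. Reads per gene length are not known here, so these totals set no order of abundance between genes. Fewer than 20 UMIs were counted for Cacna1f (8), Scn10a (6), Cacna1s (5), Scn11a (4) and Scn4a (2), which are best known from retina, muscle or sensory neurons. Cacna2d4 had 87 UMIs and Scn7a, an atypical channel that senses sodium, had 257. In the sum of all nuclei, 25 of the 32 passed the filter on low counts.

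All 32 genes matched a RefSeq entry of GRCm38.p6, with Scn2a1 listed there as Scn2a. A run of 5 sodium alpha genes lies on chromosome 2: Scn3a (chr2:65457118-65567591), Scn2a1 (chr2:65620764-65767447), Scn1a (chr2:66270781-66440837), Scn9a (chr2:66480080-66635114) and Scn7a (chr2:66673426-66784910). Scn2b (chr9:45117876-45130070) and Scn4b (chr9:45138624-45154155) also neighbour each other. The run as a whole did not share 1 direction in the comparisons below. Between inhibitory and excitatory nuclei of cortex Scn1a and Scn9a were higher, and Scn3a and Scn2a1 were lower. Each of these 2 adjacent pairs went the same way there, and the part of position was not tested. An annotated gene on the opposite strand overlaps several members, Cacna1h, Cacna2d2, Cacna1a, Cacna1d and Cacna2d3 among them. The strand setting of the counting was not stated, and 14 members are overlapped by a gene with its own row.

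The 250 bases before a RefSeq start are shown for 3 members: Scn1a was higher in inhibitory nuclei of both regions, Scn7a differed most between regions, and the T-type gene Cacna1i was lower in hippocampus in sums of all nuclei. The windows are chr2:66440838-66441087 on the minus strand (Scn1a), chr2:66784911-66785160 on the minus strand (Scn7a) and chr15:80286988-80287237 on the plus strand (Cacna1i), all in GRCm38.p6 and read 5′ to 3′ along the gene. All 3 lie before the RefSeq span of their gene, and 208 bases of the Scn1a window are exon of an annotated gene on the opposite strand. Capitals mark the GC box, GGGCGG, or its reverse complement, wherever 1 of them occurs.
Scn1a: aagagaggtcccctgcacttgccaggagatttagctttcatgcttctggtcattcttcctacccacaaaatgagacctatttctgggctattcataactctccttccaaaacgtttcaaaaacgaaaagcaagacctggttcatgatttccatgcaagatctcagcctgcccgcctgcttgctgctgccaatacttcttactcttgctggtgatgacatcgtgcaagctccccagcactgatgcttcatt
Scn7a: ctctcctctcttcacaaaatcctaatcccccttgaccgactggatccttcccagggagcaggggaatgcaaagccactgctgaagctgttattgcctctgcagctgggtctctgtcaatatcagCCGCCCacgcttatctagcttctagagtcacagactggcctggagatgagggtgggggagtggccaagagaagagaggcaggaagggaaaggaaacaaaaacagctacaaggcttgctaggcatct
Cacna1i: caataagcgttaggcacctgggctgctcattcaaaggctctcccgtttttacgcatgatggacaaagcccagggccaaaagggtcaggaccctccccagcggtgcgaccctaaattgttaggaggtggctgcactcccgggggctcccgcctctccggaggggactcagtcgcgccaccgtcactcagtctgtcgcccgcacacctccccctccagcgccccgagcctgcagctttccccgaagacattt
These windows held 4 CpG for Scn1a, 3 for Scn7a and 16 for Cacna1i, against a median of 6 over all 32851 windows of the table. Their GC content was 46.8%, 53.2% and 62.4%. The numbers of GC boxes were 0, 1 and 0, in the same order. The GC box was found in 13 of 34 windows of 24 members and in 32.74% of all windows. Other motifs searched on both strands follow. The CCAAT box was found in 33.9% of all windows and in 8 of the members' windows. The TATA motif TATAAA was in 12.4% of all windows and in 2 of the members' windows. The E-box CAGCTG was in 13% of all windows and in 9 of the members' windows, and the E-box CAGATG was in 14.4% of all windows and in 5 of the members' windows. The cAMP response half-site TGACGT was in 6.47% of all windows and in 1 of the members' windows. The full palindrome TGACGTCA was in 1.55% of all windows and in 0 of the members' windows, and each of its matches is also a match of the half-site. The homeobox core TAATTA was in 4.84% of all windows and in 0 of the members' windows. Of the repressor REST, the half-site core CAGCACC was in 5.73% of all windows and in 0 of the members' windows, its longer form TTCAGCACC was in 0.3% of all windows and in 0 of the members' windows, and the other half-site GGACAGC was in 5.28% of all windows and in 1 of the members' windows. The table has windows for several starts of some genes, and 26 of the 34 have bases inside the RefSeq span of their gene, so these counts are not all of sequence upstream of the gene. The 3 windows were picked among those before the gene, and the GC box was chosen to be marked, after values and matches had been seen.

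Nuclei were clustered without these genes and without 31 partner genes, and clusters were named from marker lists. Excitatory neuron-like nuclei numbered 2451 in hippocampus and 4026 in cortex, and inhibitory neuron-like nuclei 214 and 598. Excitatory nuclei made up 34% to 51.3% of the nuclei of a hippocampus unit and 61.6% to 69.7% in cortex. Levels are CPM, the UMIs of a gene scaled to a common total per sum, printed for numbers 0, 1, 2 and 3 in that order, and fold changes come from edgeR's quasi-likelihood test on UMI sums with Benjamini-Hochberg adjustment over all genes tested, called at an adjusted p under 0.05.

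The units of number 0 differed from the others of their region. In excitatory nuclei number 0 had the highest of the 4 levels in both regions for 10 of 24 members (41.7%), against 22.5% of 8477 genes, and the lowest for 4 (16.7%, against 16.9% of genes). The 10 were Cacna1a, Cacna1b, Cacna1c, Cacna1d, Cacna1e, Cacna1g, Cacna1i, Cacnb1, Cacnb4 and Scn8a, of which only Scn8a is a sodium channel gene. The 4 were Scn2a1, Scn2b, Scn3a and Scn9a, all of the sodium channel family. The largest shift of these was that of the T-type gene Cacna1g, which was 111, 52.2, 49.3 and 42.1 CPM in hippocampus and 170.1, 72.1, 84.9 and 91.2 CPM in cortex. Its number 0 was 2.33 times the mean of the other 3 in hippocampus and 2.06 times in cortex. Number 0 also held fewer dentate granule-like nuclei in hippocampus, 35.8% of excitatory nuclei against 52.9% to 56.1%. Its excitatory nuclei there included 132 of the 156 hippocampal nuclei named layer 2-4-like. Excitatory nuclei of number 0 had a median of 2582 UMIs in cortex, against 1068 to 1249, and 1377 in hippocampus, against 1140 to 1230. Unnamed clusters held 32.4% of all its hippocampal nuclei, against 6.54% to 8.48%. The part of these shares and depths in the shifts was not tested, and counts with number 0 left out are given below.

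**Figure D1:**
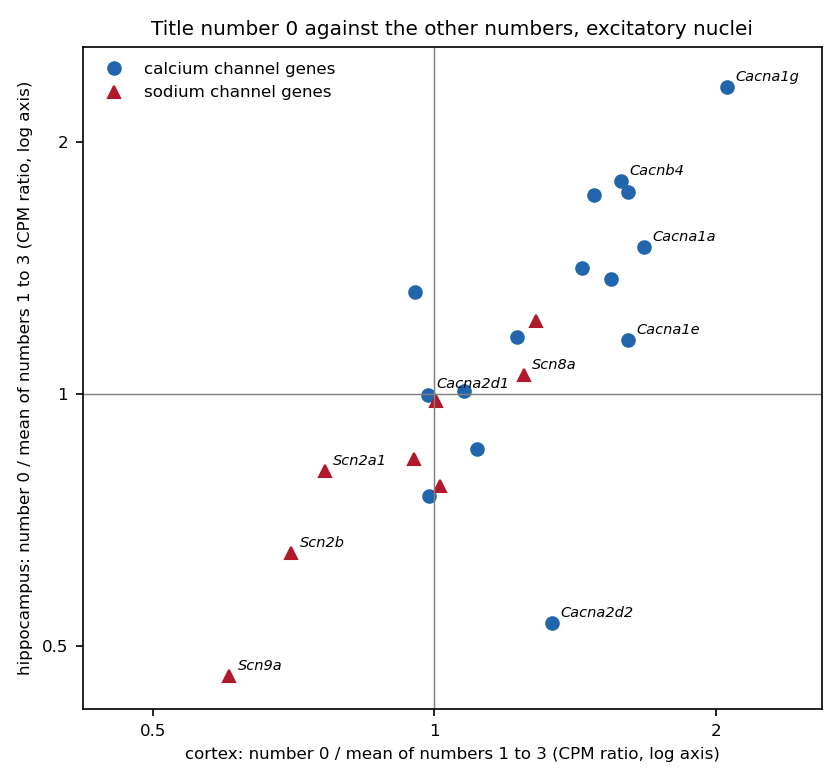
Level in number 0 divided by the mean level of numbers 1 to 3 in excitatory neuron-like nuclei, cortex on the horizontal and hippocampus on the vertical log axis, 1 point per member shown (circles calcium, triangles sodium channel genes). Cacna1g lies at the upper right, at 2.06 in cortex and 2.33 in hippocampus, and Scn2a1, Scn2b and Scn9a lie below 1 on both axes.

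Within excitatory neuron-like nuclei, 5 channel genes were higher in hippocampus than in cortex and 1 was lower. The sodium beta subunit Scn3b, the T-type gene Cacna1h, the R-type gene Cacna1e, the sodium alpha gene Scn3a and the calcium beta subunit Cacnb2 were higher by 1.45- to 2.64-fold. Scn7a was lower, at 0.0807 times its cortical level. These were 6 of 25 members tested (5 higher, 1 lower), where 15.9% of 10965 genes were called (8.51% higher, 7.42% lower). The members' median log2 fold change was 0.07 and that of all genes -0.008.

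Scn3b was 236, 297, 334 and 281 CPM in the 4 hippocampus units and 111, 103, 114 and 113 CPM in the 4 cortex units. All hippocampus units lay above all cortex units, and the log2 fold change was 1.40 ± 0.13 (SE, edgeR adjusted p = 9.0e-06). Its mean was 287 ± 40.8 CPM in hippocampus and 110.3 ± 4.89 CPM in cortex (SD, n = 4 units each). Scn3b encodes a beta subunit that shifts the gating of the pore-forming subunit. Cacna1h was 106, 111, 128 and 133 CPM in hippocampus and 53.2, 49.2, 46.2 and 48.4 CPM in cortex. Again the groups did not overlap, with a log2 fold change of 1.29 ± 0.14 (edgeR adjusted p = 2.7e-05). Scn3a, a sodium alpha gene best known for its expression before birth, was 301, 342, 381 and 358 CPM against 223, 229.7, 238 and 236 CPM. Its groups were apart as well, by 0.60 ± 0.11 on the log2 scale (edgeR adjusted p = 0.0016). These sums pool excitatory subtypes, and Scn3a differed between those of hippocampus, as given below.

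Cacna1e, the pore of the R-type current, was 234, 206, 199.7 and 199 CPM in hippocampus and 182, 110.5, 108 and 120.2 CPM in cortex. The cortex number 0 came close to the hippocampus values and the other cortex units lay far below them (log2 fold change 0.70 ± 0.16, edgeR adjusted p = 0.0088). Cacnb2 was 70.3, 89.4, 94.5 and 95.4 CPM against 60.2, 69.4, 64.9 and 49.1 CPM, a difference of 0.53 ± 0.16 (edgeR adjusted p = 0.035) with groups that were barely apart. Its call was lost without any one of 5 of the 8 units (hippocampus 1, 2 and 3, cortex 2 and 3), and its edgeR adjusted p rose to 0.11 at most over all alternatives. Scn7a was 1.27, 0, 3.99 and 2.22 CPM in hippocampus, from 7 UMIs in all, and 13.3, 26.3, 26.9 and 27.6 CPM in cortex, from 152 UMIs. Every hippocampus unit was near 0, cortex number 0 was the lowest of its region, and the log2 fold change was -3.63 ± 0.49 (edgeR adjusted p = 2.1e-04). The other 19 tested members had log2 fold changes from -0.69 (Cacna1i) to 0.41 (Scn9a).

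**Figure D2:**
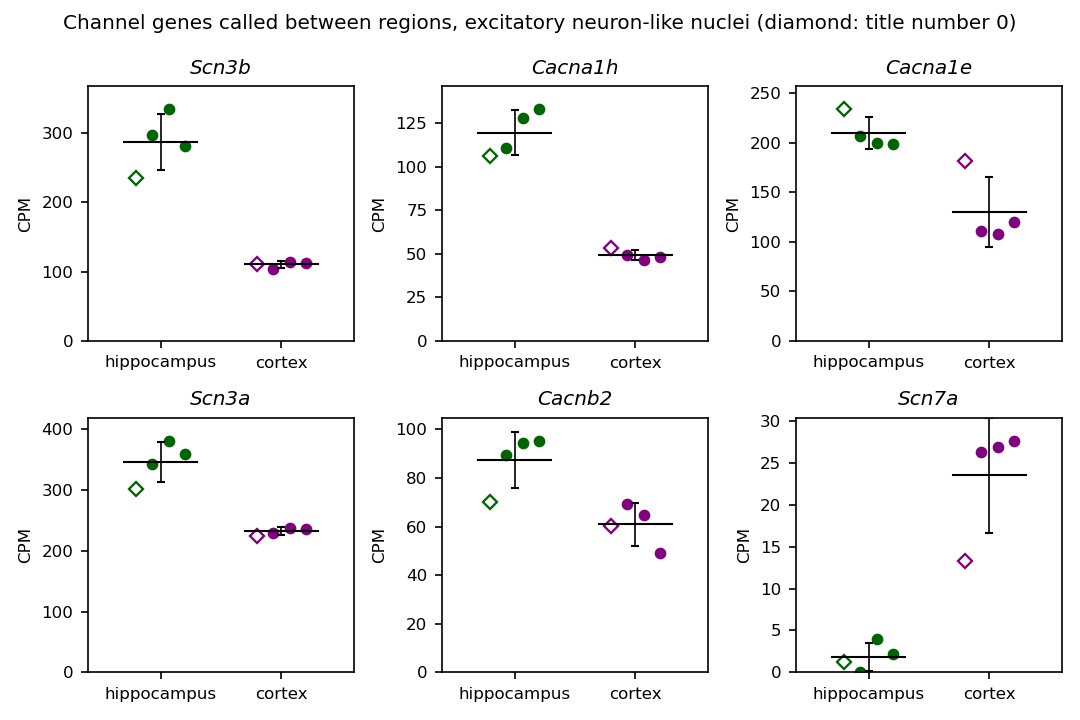
CPM of the 6 called members in excitatory neuron-like nuclei of hippocampus (left, green) and cortex (right, purple), 1 marker per unit with title number 0 as an open diamond, the line at the mean and bars of 1 SD over 4 units. The hippocampus markers of Scn3b (236 to 334 CPM) lie above all cortex markers (103 to 114 CPM), and those of Scn7a (0 to 3.99 CPM) lie below all of them (13.3 to 27.6 CPM).

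Without number 0 in either region, 16 members passed in excitatory nuclei, with the 6 above among them, 8 higher and 8 lower, where 33% of all genes were called. Without hippocampus number 0 alone the count was 11, where 22.7% of all genes were called. The 8 lower members without number 0 in either region included Cacna1g (-0.75 ± 0.16), Cacna1i (-0.81 ± 0.24) and the calcium beta subunit Cacnb4 (-0.57 ± 0.09). These are log2 fold changes and SE. The summed level of the 10 oligodendrocyte markers, of which 0 to 1 were at 0 in a unit, was 444 to 478 CPM in the hippocampal excitatory sums and 188 to 215 CPM in the cortical ones. The list includes St18, a leading gene of a dentate granule-like cluster at clustering resolution 4, so the sum is not of oligodendrocyte transcripts alone. The part of this sum in these results was not tested.

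In sums of all nuclei, 4 members were higher in hippocampus and 6 were lower, of 25 tested, where 17.7% of 12855 genes were called (9.19% higher, 8.53% lower). In such sums, fewer cells of a type and less RNA per cell cannot be told apart, and the shares of excitatory nuclei given above differed between regions. Scn3b (0.96 ± 0.11 on the log2 scale), Cacna1h (0.83 ± 0.13), Cacnb2 (0.36 ± 0.10) and Scn3a (0.35 ± 0.11) were again higher. Scn7a (-1.54 ± 0.29), Cacna1i (-0.86 ± 0.20), the calcium beta subunits Cacnb3 (-0.76 ± 0.12) and Cacnb1 (-0.63 ± 0.15), the N-type gene Cacna1b (-0.56 ± 0.17) and Cacna2d1 (-0.40 ± 0.08) were lower. Of these 10, Cacna1b alone had overlapping groups: 189, 146, 142 and 113 CPM in hippocampus and 292, 184, 192 and 199.5 CPM in cortex. Scn3b was 155, 198, 209.9 and 187 CPM in hippocampus and 96.6, 96.4, 93.1 and 95.6 CPM in cortex, and Cacna1h was 63.6, 79.1, 85.9 and 86.4 CPM against 44.9, 43.4, 44.5 and 41.7 CPM. Both stood clear of the cortex in every unit. Scn3a was 220.4, 273, 289 and 269 CPM against 191, 209, 211 and 207 CPM, and Cacnb2 was 80.9, 71.6, 74.8 and 76.9 CPM against 59.2, 62.3, 61.2 and 53.4 CPM. The hippocampus units were again the high ones, without overlap. Cacnb3 was 65.7, 56.5, 54 and 47.9 CPM against 86.2, 88.4, 100.2 and 104 CPM, Cacnb1 was 57.6, 38.3, 44.3 and 51.3 CPM against 92.3, 61, 69.2 and 74.3 CPM, and Scn7a was 5.74, 6.28, 6.24 and 7.80 CPM against 10.7, 23.1, 21 and 20.9 CPM. In these 3 the hippocampus units were the low ones. Cacna2d1 was 285, 269, 294 and 304 CPM against 357, 376, 376 and 394 CPM, and Cacna1i was 25.6, 21.3, 22.9 and 13.9 CPM against 47.9, 38.3, 34.8 and 30.5 CPM. Without number 0 in either region, 14 members passed in all nuclei, where 32.6% of all genes were called: the same 10 and Cacna1e, Cacna2d2, Cacnb4 and Scn2a1. The edgeR adjusted p of the 10 calls ran from 1.4e-04 for Scn3b to 0.036 for Scn3a. The calls of Cacnb2, Scn3a and Cacna1b were each lost without hippocampus 1, 2 or 3 or cortex 3. Those of Cacnb2 and Scn3a were also lost without cortex 1 or 2, that of Cacnb2 without hippocampus 0 and that of Cacna1b without cortex 0. No tested L-type gene passed.

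Within inhibitory neuron-like nuclei, none of 19 tested members passed between regions with edgeR or with DESeq2, where 0.181% of 4968 genes were called with edgeR (0.0805% higher, 0.101% lower). With edgeR, 1 of the 19 had an unadjusted p under 0.05, and the members' median log2 fold change was 0.01. These sums were shallow, from 214 hippocampal nuclei, so a difference of moderate size may not have been detectable at this depth. Scn1a, for example, was 615, 723, 767 and 742 CPM in hippocampus and 754, 704, 729 and 804 CPM in cortex.

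Inhibitory and excitatory neuron-like nuclei of the same unit differed in 10 of 25 tested members in cortex (3 higher in inhibitory nuclei, 7 lower) and in 8 of 23 in hippocampus (3 higher, 5 lower). Among all genes 18.0% were called in cortex (8.85% higher, 9.15% lower) and 15.2% in hippocampus (6.56% higher, 8.68% lower). The alpha2delta gene Cacna2d2 and the sodium alpha gene Scn1a were higher in inhibitory nuclei of both regions. Cacna1e, Scn3b and Scn3a were lower in both. Both regions have separate libraries, and no test of the overlap of these lists was made.

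Cacna2d2 was 165, 180.3, 139 and 184 CPM in cortical inhibitory nuclei and 24.6, 23.6, 15.9 and 15.9 CPM in cortical excitatory nuclei. In hippocampus it was 144, 231, 384 and 180.1 CPM and 9.50, 32.3, 7.99 and 13.3 CPM. Inhibitory sums were above excitatory sums in every unit of both regions and the levels did not overlap. The fold was 7.87 in cortex (log2 2.98 ± 0.18, edgeR adjusted p = 6.9e-25) and 14.6 in hippocampus (log2 3.86 ± 0.31, edgeR adjusted p = 9.5e-20). Its relative Cacna2d1 went the other way in cortex, with 218, 232, 251 and 268 CPM in inhibitory and 433, 429.8, 432 and 458 CPM in excitatory nuclei. That is a log2 fold change of -0.91 ± 0.09 (edgeR adjusted p = 2.9e-13), with no overlap.

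Scn1a, the main sodium channel of fast-spiking interneurons and the gene mutated in Dravet syndrome, was 754, 704, 729 and 804 CPM in inhibitory and 494, 532, 485 and 459.5 CPM in excitatory nuclei of cortex. In hippocampus the values were 615, 723, 767 and 742 CPM and 400.3, 435, 418 and 372 CPM. The groups were apart in both regions, by 0.56 ± 0.07 in cortex (edgeR adjusted p = 2.9e-10) and 0.76 ± 0.14 in hippocampus (edgeR adjusted p = 7.7e-06) on the log2 scale. Scn9a, best known from pain-sensing neurons, was higher in cortical inhibitory nuclei by 0.90 ± 0.30 (edgeR adjusted p = 0.023), with 16.8, 47.2, 39.8 and 46.1 CPM against 12.5, 22.9, 21.4 and 18 CPM. Its units overlapped, and the call was lost without cortex unit 1, 2 or 3. In hippocampus Cacna1b was higher in inhibitory nuclei in 3 of 4 units, with 356, 289, 144 and 254 CPM against 254, 161, 157 and 119 CPM (0.55 ± 0.19, edgeR adjusted p = 0.036). That call was lost in 8 of 14 alternative settings. Among them were DESeq2, no low-count filter, no replicate block, nuclei of at least 600 UMIs and the fits without unit 0, 1 or 3.

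Among the members that were lower in inhibitory nuclei, Cacna1e differed most in hippocampus, with 57.5, 57.8, 0 and 21.2 CPM from 16 UMIs against 234, 206, 199.7 and 199 CPM. In cortex it was 108, 55.8, 83.7 and 83.8 CPM against 182, 110.5, 108 and 120.2 CPM, and the 2 groups overlapped there although every unit went the same way. The log2 fold changes were -2.56 ± 0.31 in hippocampus (edgeR adjusted p = 3.1e-11) and -0.71 ± 0.16 in cortex (edgeR adjusted p = 3.6e-04). Scn3b was 80.5, 130.1, 71.9 and 42.4 CPM against 236, 297, 334 and 281 CPM in hippocampus and 74.2, 68.7, 75.7 and 58.6 CPM against 111, 103, 114 and 113 CPM in cortex. The Scn3b ranges of the regions overlapped in inhibitory nuclei and lay apart in excitatory ones. The fold changes were -1.85 ± 0.24 and -0.70 ± 0.17 on the log2 scale (edgeR adjusted p = 3.8e-10 and 0.0011). Scn3a was 178, 159, 132 and 159 CPM against 301, 342, 381 and 358 CPM in hippocampus and 165, 172, 159 and 155 CPM against 223, 229.7, 238 and 236 CPM in cortex. Its inhibitory units were below all excitatory units of their region, with log2 fold changes of -1.12 ± 0.19 and -0.54 ± 0.12 (edgeR adjusted p = 2.7e-06 and 1.9e-04).

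Other members passed in 1 region. Cacna1h was lower in hippocampal inhibitory nuclei, with 28.7, 0, 36 and 63.6 CPM against 106, 111, 128 and 133 CPM (-1.86 ± 0.35, edgeR adjusted p = 1.8e-05). Scn8a, the alpha subunit of the axon initial segment and nodes, was also lower there, with 466, 289, 455 and 222 CPM against 526, 524, 477 and 498 CPM (-0.52 ± 0.16, edgeR adjusted p = 0.013), a call lost without unit 1 or 3. In cortex Cacnb1 (-0.62 ± 0.19), Cacnb3 (-0.49 ± 0.17) and Scn2a1 (-0.30 ± 0.07) were lower, with edgeR adjusted p of 0.012, 0.026 and 6.3e-04. Cacnb1 was 57.5, 64.4, 47.8 and 62.8 CPM against 108, 67.4, 77.3 and 80.2 CPM and Cacnb3 was 67, 73, 83.7 and 96.3 CPM against 104, 98.4, 112 and 115 CPM, so inhibitory units were lower without overlap. Scn2a1, the alpha subunit of excitatory axons early in life, was 465, 597, 626 and 565 CPM against 548, 703, 731 and 718 CPM and overlapped. The calls of Cacnb1 and Cacnb3 were lost without cortex unit 0 or 2, and that of Cacnb3 also without unit 1. Both were lost with DESeq2 and with no replicate block as well. With number 0 left out, Cacnb1 and Cacnb3 no longer passed in cortex and the other 8 did, where 10.6% of all genes were called. In hippocampus Cacna1b no longer passed, the other 7 did, and Cacnb4 and Scn2a1 were added. Members that did not pass had log2 fold changes from -0.77 (Scn7a) to 0.23 (Scn2b) in cortex and from -0.81 (Cacna1i) to 0.60 (Cacna1g) in hippocampus.

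**Figure D3:**
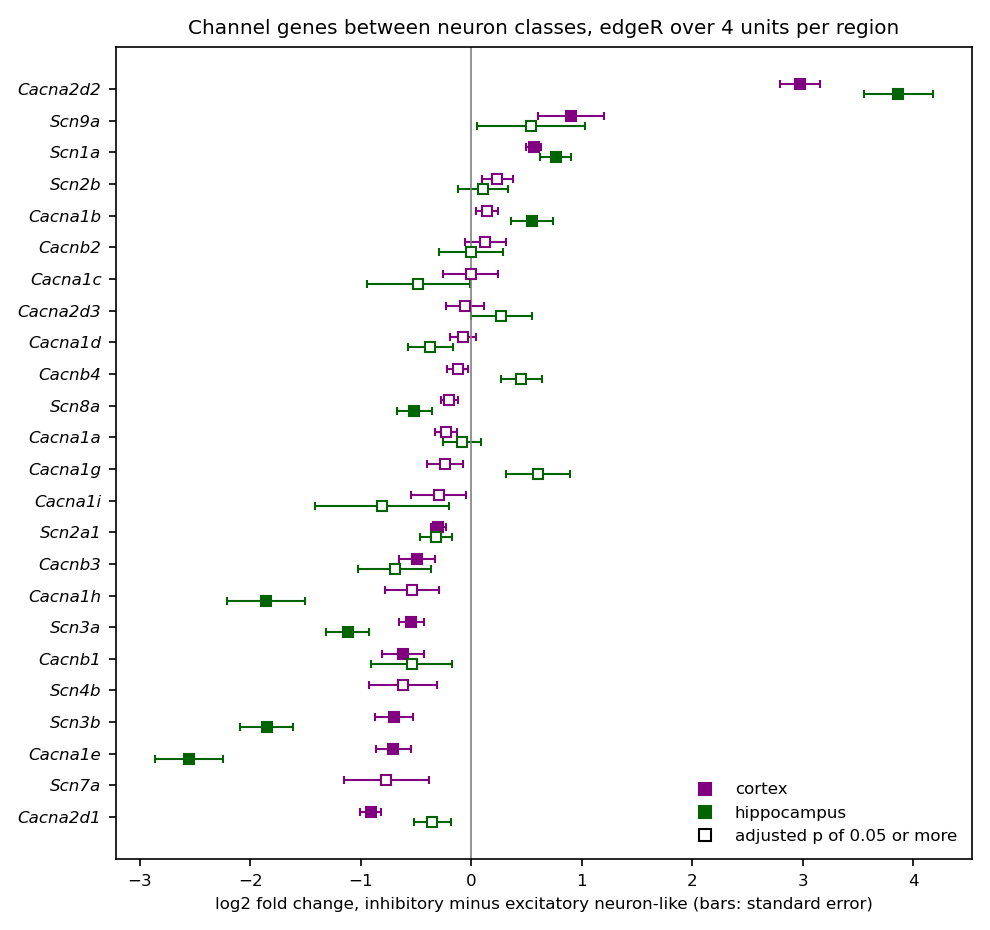
Log2 fold change of the tested members between inhibitory and excitatory neuron-like nuclei of the same units (horizontal axis, bars of 1 standard error), purple for cortex and green for hippocampus, filled where the edgeR adjusted p is under 0.05. Cacna2d2 lies farthest to the right, at 2.98 in cortex and 3.86 in hippocampus, and Cacna1e in hippocampus farthest to the left, at -2.56.

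Whether the class difference itself differed between regions was tested as an interaction, in which 2 of 25 members passed, both lower, where 3.47% of 9802 genes were called (1.22% higher, 2.24% lower). The deficit of inhibitory nuclei was larger in hippocampus for Cacna1e, with a log2 difference of -1.87 ± 0.38 (edgeR adjusted p = 1.5e-04), and for Scn3b, with -1.19 ± 0.32 (edgeR adjusted p = 0.011). Among the 25 members, 8 had an unadjusted p under 0.05. Cacna1e passed under each of 18 alternative settings, while Scn3b was lost with DESeq2 and without hippocampus unit 2 or 3 or cortex unit 0. With number 0 left out, both passed and Cacnb4 was added. The other members were not shown to differ in their class difference. The summed level of the 10 excitatory markers in inhibitory sums was 1001 to 1350 CPM in cortex and 540.3 to 1236 CPM in hippocampus, against 2085 to 2490 CPM and 2941 to 3041 CPM in excitatory sums. The 12 inhibitory markers summed to 3981 to 4334 CPM and 4477 to 6578 CPM in inhibitory sums. The part of the excitatory transcripts in the class differences was not tested.

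Cortical and hippocampal interneurons were split into Sst/Pvalb-like (404 and 144 nuclei) and Adarb2/Vip-like nuclei (194 and 70 nuclei). Over the 7 units with at least 10 nuclei of both, the levels are a description. Cacna2d2 was 256 ± 33.1 CPM in Sst/Pvalb-like sums (211 to 310.4) and 47.2 ± 34.7 CPM in Adarb2/Vip-like sums (18.9 to 109.9). Cacna2d1 was the reverse, 123 ± 31 CPM (71.8 to 155) against 503 ± 119.7 CPM (371 to 696), all as mean ± SD over 7 units. The pair of alpha2delta genes thus did not overlap in either direction, as happened for 0.333% (higher in Sst/Pvalb-like) and 0.722% (higher in Adarb2/Vip-like) of 3603 genes. Of the 18 members with at least 100 UMIs, the others overlapped. Scn8a was higher in Sst/Pvalb-like nuclei in 7 of 7 units, and Cacnb2 was lower in 7 of 7. The share of all genes with 7 of 7 units in 1 direction is not known here.

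Dentate granule-like and CA pyramidal-like nuclei of hippocampus (1187 and 545 nuclei) differed in 11 of 20 tested members, 6 higher in granule nuclei and 5 lower, where 28.0% of 6654 genes were called (13.5% higher, 14.5% lower). Scn3a and Cacna1h, both higher in hippocampal than in cortical excitatory sums, were the largest of the 6. Cacna2d3, the P/Q-type pore Cacna1a and the N-type pore Cacna1b were the largest of the 5, so the 2 called members among the release-linked pore genes were both lower in granule nuclei. CA1 and CA3 nuclei were in 1 cluster and are not separated here.

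Scn3a was 492, 555, 651 and 589 CPM in granule nuclei and 240.0, 180.0, 160.4 and 149 CPM in CA nuclei. Every granule value was above every CA value, and the log2 fold change was 1.55 ± 0.12 (edgeR adjusted p = 3.6e-21). Cortical excitatory units had 223 to 238 CPM of Scn3a, above the CA values of all units but number 0. The higher level in hippocampal excitatory sums was thus seen in granule nuclei and not in most CA units. The part of subtype shares in that result was not tested. Cacna1h was 202, 157, 227 and 186 CPM against 58.2, 79.3, 65.5 and 108 CPM, with no overlap (1.17 ± 0.17, edgeR adjusted p = 1.4e-08). Smaller differences were found for Cacnb4 (0.41 ± 0.15), Cacna2d1 (0.39 ± 0.11), the L-type gene Cacna1d (0.38 ± 0.14) and Scn2a1 (0.30 ± 0.09). Cacnb4 was 271, 196, 186 and 165 CPM against 124, 159, 131 and 147 CPM, and Cacna2d1 was 337, 431, 440.5 and 501 CPM against 265, 308, 314 and 324 CPM. Cacna1d was 226, 226, 192 and 241 CPM against 185, 134, 160.4 and 152 CPM, and Scn2a1 was 584, 803, 765 and 762 CPM against 426, 635, 566 and 565 CPM. Of these 4, Scn2a1 alone had overlapping groups. Their edgeR adjusted p ran from 0.0039 to 0.036. Each was lost without 1 or more units or with DESeq2, with Cacnb4 lost without unit 0 or 2, Cacna1d without unit 1 or 3, and Cacna2d1 without unit 3.

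Cacna2d3, the third alpha2delta gene, was 45.1, 45.3, 31.5 and 47.6 CPM in granule nuclei and 98.2, 143, 118 and 130.1 CPM in CA nuclei. Its log2 fold change was -1.62 ± 0.21 (edgeR adjusted p = 3.5e-10), with every granule value below every CA value. Cacna1a was 245, 229, 214 and 153 CPM against 556, 333, 409 and 374 CPM, also with no overlap (-1.11 ± 0.12, edgeR adjusted p = 1.3e-13). Cacna1b (-0.85 ± 0.15, edgeR adjusted p = 2.2e-06) and Scn1a (-0.59 ± 0.11, edgeR adjusted p = 4.9e-06) were lower too. Cacna1b was 149.7, 112, 142 and 77.7 CPM against 233, 192, 206 and 163 CPM, without overlap. Scn1a was 238, 362, 352 and 283 CPM in granule and 345, 476, 442 and 448 CPM in CA nuclei, and these ranges overlapped although all 4 units went the same way. Scaled by library size in place of TMM, the calls over all genes were 1268 higher and 733 lower in granule nuclei, against 896 and 966. The median of all genes then moved from 0.004 to 0.12, and no member's call turned its direction. With number 0 left out, Cacnb4 no longer passed, the other 10 did, and Cacna1g was added. The 12 inhibitory markers, of which 0 to 4 were at 0, summed to 299 to 435 CPM in granule sums and the same list, with 2 to 6 at 0, to 58.2 to 91.7 CPM in CA sums. Oligodendrocyte markers summed to 603 to 722 CPM and 316 to 377 CPM. That list includes St18, a leading gene of a granule-like cluster at clustering resolution 4, and levels of its single genes are not given here. The part of either list was not tested.

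In cortex, layer 5- and 6-like nuclei (271 and 769 nuclei) were set against layer 2-4-like nuclei (1371 nuclei). Of 23 tested members, 3 were higher in the deep layers and 5 were lower, where 15.2% of 7623 genes were called (7.15% higher, 8.05% lower). Scn4b, a beta subunit known for resurgent sodium current, was 53.8, 53.5, 57.4 and 46.2 CPM in deep and 29.4, 11.7, 14.2 and 17.2 CPM in upper layers. Upper-layer unit 0 was above the other upper units and still below all deep ones (1.43 ± 0.28, edgeR adjusted p = 8.5e-06). Cacna2d2 was 47.8, 34, 28.7 and 24.4 CPM against 11.6, 16.3, 14.2 and 8.59 CPM (1.46 ± 0.37, edgeR adjusted p = 9.4e-04), a call lost without unit 0. Cacna1h was 50.8, 85, 63.1 and 67.9 CPM against 47.2, 41.9, 38.5 and 43 CPM (0.59 ± 0.21, edgeR adjusted p = 0.042), lost without unit 1, 2 or 3.

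Cacna2d1, lower in deep layers, was 329, 381, 344 and 288 CPM against 508, 487, 476 and 560.5 CPM in upper layers. No deep value reached an upper one, and the log2 fold change was -0.61 ± 0.09 (edgeR adjusted p = 5.5e-10). As between neuron classes in cortex, Cacna2d1 and Cacna2d2 differed in opposite directions. Cacnb3 had a log2 fold change of -0.80 ± 0.16 (edgeR adjusted p = 2.4e-05), with 47.8, 77.8, 103 and 89.6 CPM against 136, 139.8, 129.7 and 137 CPM. Cacna1b (-0.63 ± 0.12), Scn3b (-0.61 ± 0.16) and Cacnb2 (-0.67 ± 0.21) were lower as well, with edgeR adjusted p of 4.3e-06, 0.0018 and 0.012. Cacna1b was 191, 143, 158 and 177 CPM against 355, 203, 249 and 215 CPM and Scn3b was 92.6, 94.8, 83.2 and 81.5 CPM against 155, 117, 118 and 144 CPM, with the deep units lower. Cacnb2 was 41.8, 72.9, 43 and 38 CPM against 69.5, 83.9, 99.3 and 58 CPM, its groups overlapped, and its call was lost without unit 0 or 2. With number 0 left out, Cacna2d2 and Cacnb2 no longer passed, the other 6 did, and Scn3a was added. With DESeq2 the calls of Cacna1h, Cacna2d2, Cacnb2 and Scn3b were lost. Those of Cacna1b, Cacnb2 and Scn4b were lost at clustering resolution 1. That of Cacna1b was also lost when members and partners were kept in the clustering, where 0 members were among the variable genes. No cluster was named layer 6-like in either setting, so the deep sums there held layer 5-like nuclei only and the comparison was another one. The 10 oligodendrocyte markers summed to 217 to 255 CPM in deep and 144 to 213 CPM in upper sums, and the 8 choroid plexus markers to 80.7 to 181 CPM and 389 to 430 CPM. No cortical nuclei were named choroid plexus-like, and all 26 nuclei of that name were in number 0 of hippocampus. The part of either list was not tested.

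**Figure D4:**
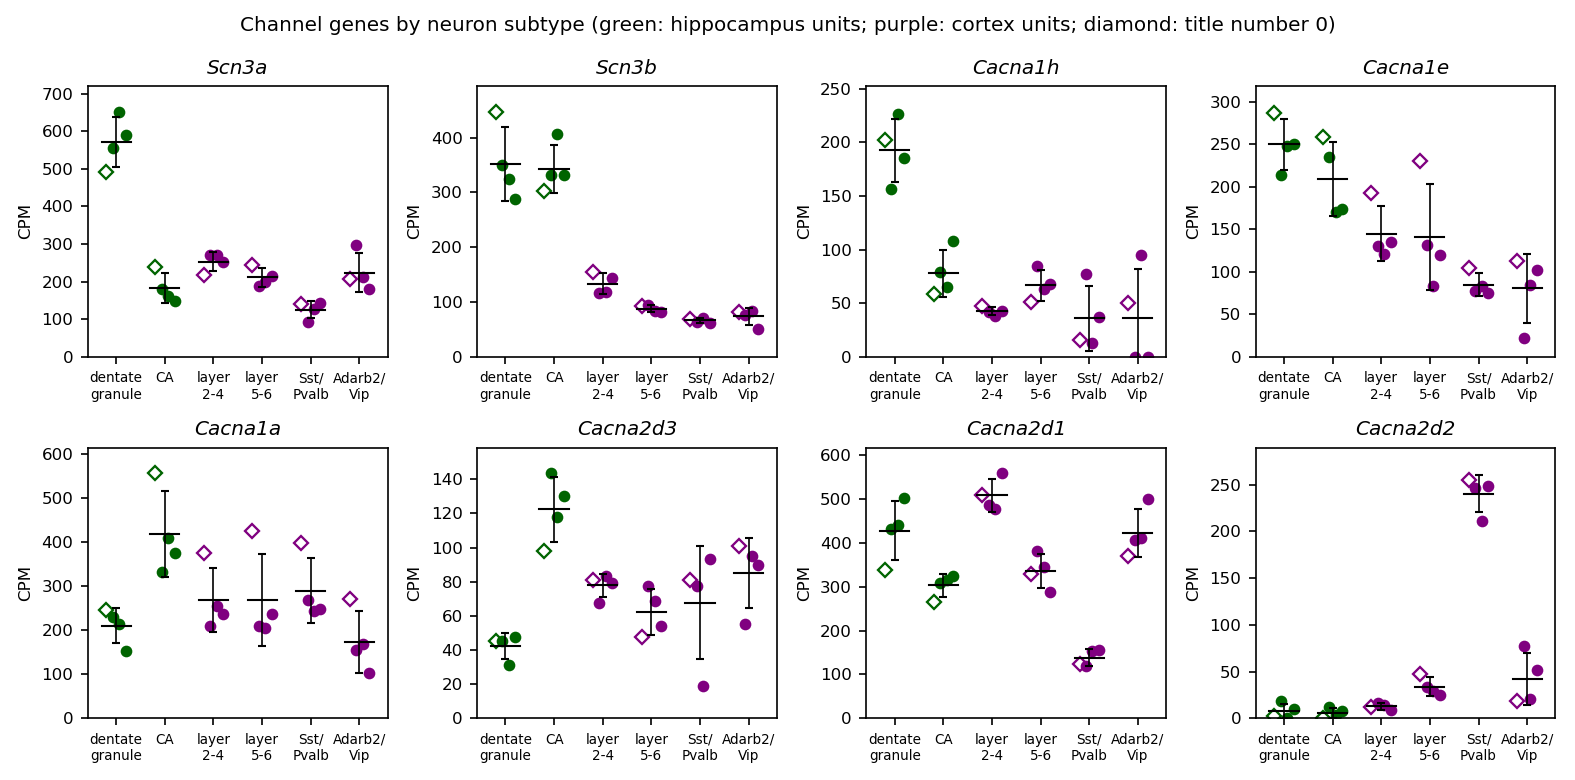
CPM of 8 members by neuron subtype, 1 marker per unit (green hippocampus, purple cortex, open diamond title number 0), line at the mean and bars of 1 SD over units. The Sst/Pvalb-like and Adarb2/Vip-like columns hold the cortex units. Scn3a is highest in dentate granule-like units (492 to 651 CPM against 149 to 240.0 CPM in CA), and Cacna2d2 and Cacna2d1 change places between Sst/Pvalb-like and Adarb2/Vip-like nuclei.

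Most cortical UMIs of Scn7a were in excitatory clusters outside the named layers. An excitatory cluster led by Pamr1 (845 cortical nuclei) had 82 of the 202 cortical UMIs, with a pooled level of 78.3 CPM and 33.9 to 104 CPM over units. A cluster led by Vill and Efcab3 (371 nuclei) had 42, at 29.5 CPM. The layer 2-4-like clusters stood at 3.80 and 10.3 CPM and layer 6-like nuclei at 5.84 CPM. Scn7a was not used in clustering, and these levels are a description. Neither cluster was named by layer.

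Hippocampal libraries also held nuclei with markers of thalamus (184, of which 137 in number 0) and of midbrain (345). The T-type gene Cacna1g, known for burst firing of thalamic relay cells, had 359 CPM (95% interval 310.1 to 415) in thalamic-like nuclei, with 347, 445, 429 and 309 CPM in the units. That lies above its level in any unit of excitatory nuclei. Scn1a had 827 CPM (95% interval 751 to 909) in thalamic-like and 893 CPM (95% interval 822 to 967) in midbrain-like nuclei. Cacna2d2 had 226 CPM (95% interval 191 to 265) in midbrain-like nuclei. Intervals are exact Poisson intervals and cover counting error only. These nuclei were in the all-nuclei sums, and leaving them and unnamed clusters out turned no direction among the 10 calls there and ended the call of Cacnb2.

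In glial and vascular nuclei, channel transcripts were read against 3 transcripts of excitatory neurons, Slc17a7, Nrgn and Camk2a, which those cells should lack. In astrocyte-like nuclei these stood at 33.5%, 60.2% and 35.9% of their level in excitatory nuclei, and the median of 25 members stood at 33.9%. Levels of that size were read as background. Only Cacna2d2 had an interval above all 3 in astrocyte-like nuclei. In oligodendrocyte-like nuclei only Cacnb4 did, at 466 CPM (95% interval 389.6 to 553), with 514, 408, 444 and 284 CPM in the hippocampus units. The 3 transcripts were at 22.7%, 64.7% and 17.9% there and the members' median at 25.1%. In endothelial-like nuclei only the L-type gene Cacna1c did, known from vascular smooth muscle. Cacna1c was at 26.7 CPM (95% interval 18.6 to 37.1) there, a cluster whose leading genes include the pericyte gene Rgs5. Microglia-like nuclei had 7 such members, with the 3 transcripts at 57.0% to 74.8% and the members' median at 86.0%, and meningeal fibroblast-like nuclei had none.

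**Figure D5:**
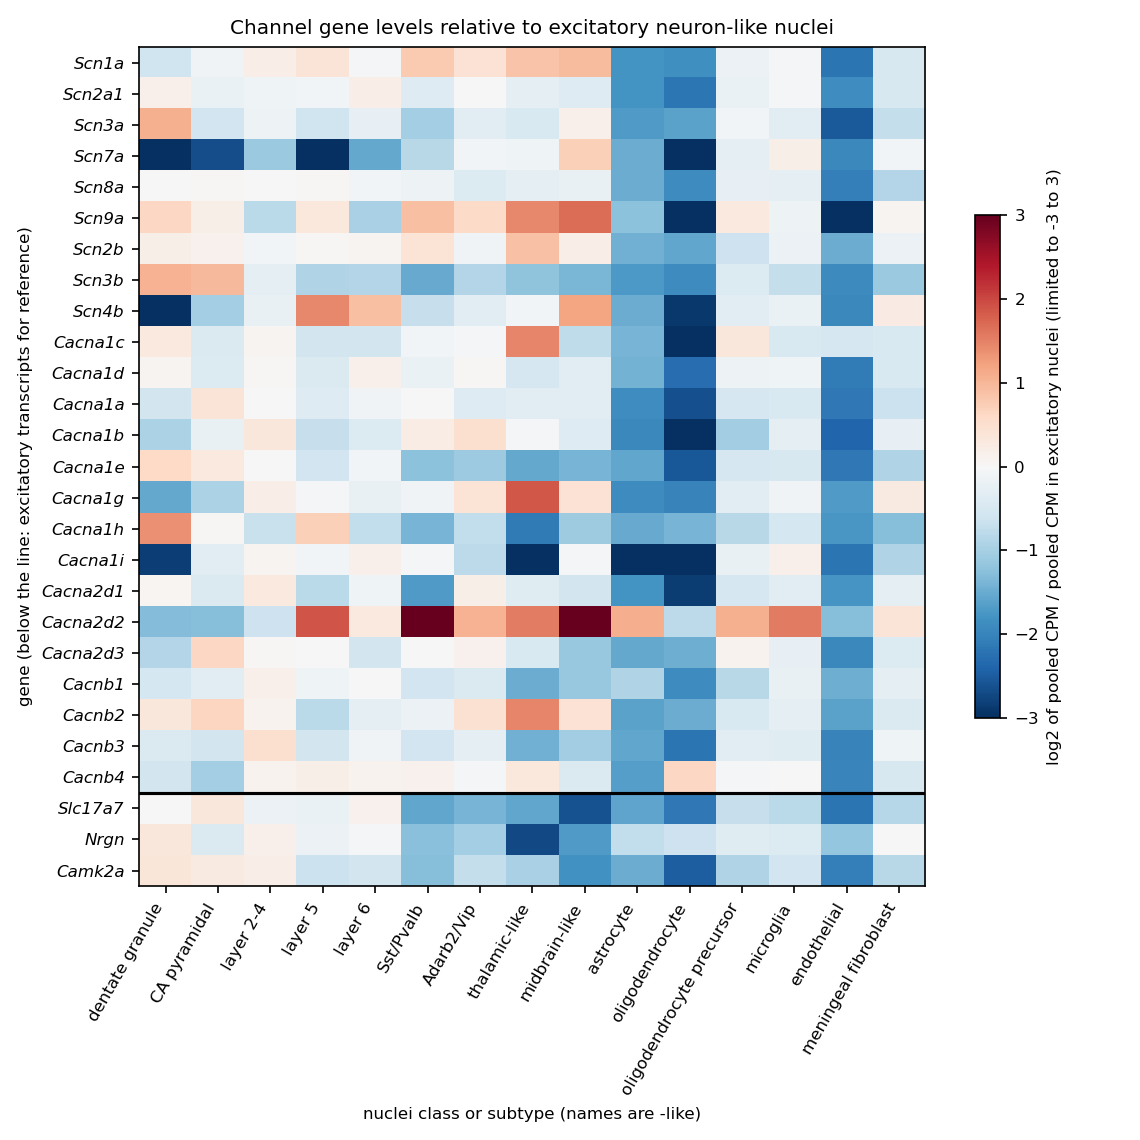
Pooled level of members with at least 100 UMIs in excitatory nuclei, by class or subtype, as log2 of its ratio to the level in excitatory neuron-like nuclei (red higher, blue lower, colours limited to -3 to 3). The rows below the line are Slc17a7, Nrgn and Camk2a, transcripts of excitatory neurons that give the background from such neurons in other classes. Glial and endothelial columns are mostly blue, and Cacna2d2 is red in Sst/Pvalb-like and midbrain-like nuclei.

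Oligodendrocyte precursor-like nuclei were set against astrocyte-like nuclei of the same 8 units. Only 4 of the 32 members passed the filter on low counts. A gene can pass it by its level in 1 class alone, so the shared direction of the 4 is not independent of the filter. All 4 tested members were higher in precursors, where 46.2% of 930 genes were called (21.3% higher, 24.9% lower). They were Scn2a1 (1.34 ± 0.20), Scn1a (1.26 ± 0.25), Cacnb4 (1.24 ± 0.26) and Scn8a (0.97 ± 0.21), with edgeR adjusted p from 5.3e-07 to 2.6e-04. Scn2a1 was 539 ± 213 CPM in precursors and 206 ± 103 CPM in astrocyte-like nuclei (SD, n = 8 units), higher in 8 of 8 units, and the ranges overlapped. Scn1a was 371 ± 183 against 153 ± 68.1 CPM, Cacnb4 was 259 ± 94 against 116 ± 57.7 CPM, and Scn8a was 364 ± 108 against 180.2 ± 57.5 CPM. These also overlapped, with Scn8a higher in 8 of 8 units and Scn1a and Cacnb4 in 7 of 8. With number 0 left out, Scn2a1 was the 1 member tested, and it passed. At clustering resolution 1 the calls of Scn1a, Cacnb4 and Scn8a were lost, and that of Scn8a also without a filter on low counts. Slc17a7, Nrgn and Camk2a stood at 62.0%, 77.3% and 53.4% of their excitatory level in precursors and the median of 25 members at 79.7%, and only Cacna2d2, which was not among the 4, had an interval above all 3. For Cacna2d2 this scale has the limit given above. Slc17a7 was at 204 CPM (95% interval 158 to 258) against 110.3 CPM (95% interval 90.3 to 133), in precursors and astrocyte-like nuclei, and the part of such transcripts in the calls was not tested. Scaled by library size, the median of all genes moved to 0.33, with 332 higher and 181 lower calls against 198 and 232.

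A fixed list of 31 partner genes was counted beside these channels, with calls at the same threshold. Many code for proteins that bind or place the channels. The list also holds Nalcn, Unc79, Unc80 and Fam155a, of a separate leak channel, and Cacng genes such as Cacng8, described next. Between regions, 3 of 29 tested partners were higher and 6 lower in hippocampal excitatory nuclei, where 15.9% of all genes were called (8.51% higher, 7.42% lower). The smallest p belonged to the release proteins Snap25 (-0.64 ± 0.09 on the log2 scale) and Stx1a (-1.50 ± 0.36), which bind presynaptic calcium channels, to Cacng8 (1.63 ± 0.25), an AMPA receptor accessory subunit named for its likeness to calcium channel gamma subunits, and to the sodium channel binding factor Fgf13 (0.91 ± 0.20). In all nuclei 3 of 30 were higher and 6 lower (17.7% of all genes called), and in inhibitory nuclei none of 20 passed with edgeR (0.181% of all genes), with 5 at an unadjusted p under 0.05. Between neuron classes, 4 of 28 were higher and 7 lower in inhibitory nuclei of cortex (18.0% of all genes called), led by Unc80 (-0.48 ± 0.06), Stx1a (-0.86 ± 0.12) and Fgf11 (2.52 ± 0.36). In hippocampus 2 of 25 were higher and 5 lower (15.2% of all genes), led by Cacng2 (1.35 ± 0.25), and in the interaction none of 29 passed with edgeR (3.47% of all genes), with 5 at an unadjusted p under 0.05.

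Between granule and CA nuclei 3 of 21 partners were higher and 4 lower (28.0% of all genes called), led by Stx1a (-1.80 ± 0.30), Nedd4l (0.73 ± 0.13), a ubiquitin ligase that removes sodium channels from the membrane, Rims2 (-1.49 ± 0.28), which tethers calcium channels at release sites, and Ank3 (0.46 ± 0.09), the anchor of sodium channels at the axon initial segment. In deep against upper layers 3 of 24 were higher and 4 lower (15.2% of all genes), led by Cacng3 (-1.18 ± 0.13). Stx1a and Rims2 were lower in granule nuclei as were Cacna1a and Cacna1b. In precursors against astrocyte-like nuclei 3 of 7 were higher and 1 lower (46.2% of all genes), with Ank3 the smallest in p (1.52 ± 0.20).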

How the data were processed

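Raw UMI counts of each gene in each nucleus were deposited as 1 table, made by the authors with STAR and Seurat on build mm10, per the submitters' processing notes. UMI collapsing, use of intronic reads, strand and selection of nuclei are not given in the sources used here. Columns were tied to libraries by name. A further 1689 columns have a library name that resembles that of hippocampus number 3 but matches no sample label. Whether they belong to that unit is not known, and they were not used here. Library totals ran from 1443244 to 2600788 UMIs, median UMIs per nucleus from 643.5 to 2732, and any 2 libraries shared at most 3 barcodes. Mitochondrial transcripts were 0.111% to 0.136% of UMIs in hippocampus libraries and 0.0442% to 0.0516% in cortex.

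Nuclei were clustered in scanpy 1.11.5 (2000 variable genes, 40 principal components, 20 neighbours, Leiden resolution 2, leidenalg 0.10.2) and clusters were named from markers, so names are rebuilt. Subtypes needed a score of 0.85. Doublet calls (1112 nuclei, 9.57%) were kept and removed in an alternative. UMI counts were added up within a unit and class (at least 20 nuclei, or 10 for the glial contrast and for levels) and tested with edgeR 4.0.16 in R 4.3.3 (TMM, filterByExpr, quasi-likelihood, Benjamini-Hochberg over all genes). Contrasts between classes of the same unit had the unit as a block. The steps were tested on simulated counts. Intervals are exact Poisson at 95%. Alternatives were DESeq2 1.42.0, other scaling, filters, blocks, resolutions, UMI floors and samples left out. Members and lists were chosen with earlier results of these data known. By rule, all members are accounted for, those of at least 20 UMIs described, those called given by unit, and partners counted with up to 4 of smallest p named. Values of single genes that are not reported here still enter the counts and medians over members and partners. Promoter windows and positions came from RefSeq (GRCm38.p6), and overlaps from GENCODE.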

Additional observations from a re-analysis of the deposited data

Results flagged for a closer look

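Of 132 groups of 4 units, 24 held 1 unit far from the other 3 by Dixon's test, where chance gives about 1 in 20 groups. The groups are not independent, since all-nuclei sums contain the class sums, and no such share was computed over all genes. In all nuclei, number 0 was the highest of 4 in both regions for 21.8% of 10808 genes and the lowest for 14.6%. In 21 of the 24 groups the unit was number 0, 16 times in cortex. The number 0 level is given first and the range of the other 3 units in brackets. In all nuclei of cortex these were Cacna1a 345 CPM (214 to 219), Cacna1b 292 CPM (184 to 199.5), Cacna1c 42.2 CPM (30.1 to 31), Cacna1e 150.2 CPM (95.5 to 102), Cacna1g 150 CPM (72.6 to 81.8), Cacnb4 394 CPM (250.4 to 268), Scn2a1 492 CPM (643 to 658), Scn8a 488 CPM (399 to 413) and Scn9a 12.2 CPM (20.4 to 21.8). In all nuclei of hippocampus it was Cacnb4 294 CPM (188 to 191). In excitatory nuclei of cortex they were Cacna1a 402 CPM (227 to 249), Cacna1e 182 CPM (108 to 120.2), Scn2a1 548 CPM (703 to 731), Scn7a 13.3 CPM (26.3 to 27.6) and Scn8a 561 CPM (446 to 453). In excitatory nuclei of hippocampus they were Cacna1g 112 CPM (42.1 to 52.2), Cacnb4 331 CPM (173 to 191) and Scn2b 95 CPM (144 to 150.4). In inhibitory nuclei they were Cacna1a 349.6 CPM (201 to 223) and Cacna1d 263 CPM (159 to 176) in cortex and Cacna1d 224 CPM (132 to 145) in hippocampus. Calcium channel genes and Scn8a were high in number 0, and Scn2a1, Scn2b, Scn7a and Scn9a were low.

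The unit was another number in the remaining cases. Scn4b stood at 24.9 CPM in number 2 of hippocampus in all nuclei, against 18.8 to 19.3 CPM. Cacna2d1 stood at 458 CPM in number 3 of cortex in excitatory neuron-like nuclei, against 429.8 to 433 CPM. Cacna2d3 stood at 66.9 CPM in number 2 of cortex in excitatory neuron-like nuclei, against 78.8 to 80.6 CPM. The interaction test marked a class difference that differed between regions for Cacna1e, by -1.87 on the log2 scale, and for Scn3b, by -1.19.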

How the results depend on the processing

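The 59 calls of members gave 893 values under alternatives, of which 784 passed in the same direction, 109 did not pass and 0 reversed, and 33 calls held under every alternative that gave a value. The count of called members moved by over 1.5 times in the following cases. For regions in excitatory nuclei (6) it was 10 with no low-count filter, 16 with numbers 1 to 3 alone and 5 to 11 with 1 unit left out. With title number as a replicate block it was 15 there and 12 in all nuclei (10). The numbers were not taken to pair the samples, since same-number units of the 2 regions deviated together at r = 0.428 for number 0 and 0.017 to 0.097 for the others in all nuclei. Between neuron classes in cortex (10) it was 5 with no replicate block. In the interaction (2) it was 1 with DESeq2 and 1 to 3 with 1 unit left out. Granule against CA nuclei (11) gave 6 with DESeq2. Deep against upper layers (8) gave 4 with DESeq2 and 5 at resolution 1, where no cluster was named layer 6-like. Precursors against astrocyte-like nuclei (4) gave 1 with numbers 1 to 3 alone, 1 without doublet calls, each of 1 member tested, and 2 of 9 at resolution 1. Where fewer units or genes entered, that is part of the setting, and otherwise the cause was not tested. Depth limits what can be detected in sums of few nuclei: hippocampal inhibitory sums held 69165 to 174006 UMIs and hippocampal precursor sums 13584 to 89713.

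Counts over all genes also moved by over 1.5 times. Regions in all nuclei gave 2278 calls and 4128 with numbers 1 to 3 alone. In excitatory nuclei 1747 became 2645 with the block, 3492 with numbers 1 to 3 alone and 1139 to 2536 with 1 unit left out. In inhibitory nuclei 9 became 4 with DESeq2, 18 with library size scaling (4 higher and 14 lower against 4 and 5) and 54 with no filter. The 9 became 43 with the block, 139 with numbers 1 to 3 alone and 3 to 106 with 1 unit left out. They became 1 without doublet calls, 5 at resolution 1 and 17 with members and partners kept in clustering. Between classes, 1818 in cortex became 858 with DESeq2, 900 with no block and 1058 with numbers 1 to 3 alone. In hippocampus 1229 became 638 with DESeq2, and the interaction's 340 became 161 and, with no block, 128. Granule against CA nuclei gave 1862 and 891 with DESeq2. Deep against upper layers gave 1159, 395 with DESeq2 and 497 with no block. Precursors against astrocyte-like nuclei gave 430, 1226 with no filter, 228 with numbers 1 to 3 alone, 247 without doublet calls and 282 to 529 with 1 unit left out.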

Other observations

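Rare classes held other high levels. In choroid plexus-like nuclei (26, all in number 0 of hippocampus) Cacna2d2 had 257 CPM (95% interval 147 to 417), from 16 UMIs. In ependymal-like nuclei (52, hippocampus) Cacna2d2 had 82.6 CPM (95% interval 26.8 to 193), Cacnb2 149 CPM (95% interval 68 to 282) and Scn7a 66.1 CPM (95% interval 18 to 169), the last from 4 UMIs. Cacna2d4, known from the retina, was at 56.9 CPM (95% interval 32.5 to 92.4) in oligodendrocyte-like and 3.01 CPM (95% interval 2.07 to 4.22) in excitatory nuclei. These are pooled values of few nuclei, with no test.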
